A study of Homo sapiens with 88 samples.

Results

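The receptors and ligands of the netrin and repulsive guidance molecule (RGM) system were followed in small cell lung cancer (SCLC) lines. They comprised 10 genes, of 19775 genes with a probe set on the array: the receptors NEO1, DCC, UNC5A, UNC5B, UNC5C and UNC5D, the RGM genes RGMA and RGMB, and the netrin genes NTN1 and NTN4. All 27 probe sets annotated to 1 of these genes alone were taken. The genes were chosen by 2 measured values, their DMSO level in each line and 552A minus DMSO in each line and day, so these values are a description, and calls made on them support nothing. SCLC is an aggressive lung cancer, and most cases have neuroendocrine features.

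The study measured 88 Affymetrix HG-U133 Plus 2.0 arrays of 9 established human SCLC lines in serum-containing medium, 45 from cells given 552A and 43 from cells given the vehicle DMSO. Beside DMSO the treatment protocol names GSK2879552 at 1 µM, which blocks the demethylase LSD1. No label states that 552A is that compound, so the arm keeps its name. In COLO668, SHP-77, NCI-H146, NCI-H446, NCI-H510 and NCI-H526 both arms were sampled at days 2, 4 and 7, and in H69, H2171 and H1417 at day 4. These 42 groups held 2 arrays each in 39 cases, 3 in 2 and 4 in 1, which was 552A at day 7 in SHP-77. The series text speaks of 3 sensitive and 3 resistant lines, but no label says which they are, and the lines are therefore taken one by one. Whether the arrays within a group stem from separate cultures is not labelled, so p-values measure a spread that may be technical.

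Netrins are secreted guidance cues related to laminins, and RGMs are guidance cues held on the cell surface by a lipid anchor. Neogenin, the product of NEO1, is a close relative of DCC and binds both RGMs and netrins. DCC is the classical receptor for attraction towards netrin 1, and the UNC5 proteins mediate repulsion, alone or together with DCC. DCC, neogenin and the UNC5 proteins are also known as dependence receptors, which can promote cell death when no ligand is bound. RGMs further act as co-receptors for bone morphogenetic proteins (BMPs).

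Promoter sequences of NEO1, DCC and UNC5A are shown first, since the signals of these receptors differed between lines by several units on the log2 scale. They come from RefSeq (GRCh38.p14), hold 300 bases around an annotated start on the plus strand, and run 5′ to 3′ with each CG dinucleotide in capitals.
NEO1, chr15:73051652-73051951: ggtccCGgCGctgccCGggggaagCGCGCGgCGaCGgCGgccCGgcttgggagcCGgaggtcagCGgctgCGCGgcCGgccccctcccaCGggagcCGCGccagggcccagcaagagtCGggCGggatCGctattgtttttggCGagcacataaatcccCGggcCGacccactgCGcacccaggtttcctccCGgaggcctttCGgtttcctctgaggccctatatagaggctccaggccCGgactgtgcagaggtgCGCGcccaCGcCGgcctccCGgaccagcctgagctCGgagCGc
DCC, chr18:52339947-52340246: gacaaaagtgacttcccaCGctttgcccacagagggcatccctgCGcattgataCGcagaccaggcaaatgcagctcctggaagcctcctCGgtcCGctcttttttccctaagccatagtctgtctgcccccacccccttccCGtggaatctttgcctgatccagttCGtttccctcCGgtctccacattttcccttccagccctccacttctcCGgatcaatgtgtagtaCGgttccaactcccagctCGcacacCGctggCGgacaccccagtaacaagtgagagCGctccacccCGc
UNC5A, chr5:176810309-176810608: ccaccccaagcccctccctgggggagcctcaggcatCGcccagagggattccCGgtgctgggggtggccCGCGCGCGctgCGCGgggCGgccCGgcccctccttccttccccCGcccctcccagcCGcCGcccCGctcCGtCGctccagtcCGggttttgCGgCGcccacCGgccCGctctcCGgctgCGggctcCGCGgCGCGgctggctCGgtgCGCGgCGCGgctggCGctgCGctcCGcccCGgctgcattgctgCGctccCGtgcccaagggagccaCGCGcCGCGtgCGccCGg
The UNC5A window held 44 CG dinucleotides, more than 95.8% of 35116 promoter windows of 300 bases, and the NEO1 window 35, more than 85.9%. The DCC window held 15, close to the median of 14 over all windows. Across the 14 windows listed for 7 of the 10 genes, the count of CG ranged between 6 and 50, both at RGMA, which has several annotated starts. CACCTG, the motif bound by SNAIL family repressors, occurred on either strand (CAGGTG on the other) in none of the 14 windows and in 20.6% of all windows. AAATC, the core bound by GFI1 family repressors, or its reverse complement GATTT occurred once in the NEO1 window, 2 times in 1 of the RGMB windows and in no other of the 14, against 33.1% of all windows. UNC5B, UNC5D and NTN1 had no entry in the promoter table.

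All levels are log2 signals as deposited, and a level of 1 probe set is not set against that of another. A response is the difference 552A minus DMSO in log2 units, averaged over the days of a line, with the standard error (SE) of a limma fit after the ± sign. A response is said to be called where its adjusted p, over all 15352 genes tested, was below 0.05. A probe set is called dim below 6.09, the median over arrays of the lower quartile. Of the 27 probe sets, 18 passed the filter on low signals and 9 did not. The neuroendocrine markers INSM1, CHGA, SYP and NCAM1 lay above that filter in all 9 lines, INSM1 between 12.36 and 13.80 under DMSO. Of the 3 leukocyte genes under DMSO, PTPRC was dim in all 9 lines, CD14 lay between 6.35 and 7.06, and CD3E lay above the filter in all 9, between 7.49 and 7.93. Of the 3 fibroblast genes, LUM was dim in all 9 lines, and COL1A1 and DCN lay between 6.71 and 7.06. Of the 3 endothelial genes, PECAM1 and VWF lay above the filter in all 9 lines, between 7.61 and 8.40, while CDH5 stood at 10.91 in NCI-H446 and was dim in the other 8. The part of other cell types in the values below was not tested. POU2F3, the regulator of tuft cell-like SCLC, was above the filter only in NCI-H526. On 5 arrays of day 7 the 3′ minus 5′ signal of the ACTB control, a sign of RNA integrity, stood more than 0.8 above the median array, and they belonged to SHP-77 and COLO668. The array NCI-H446 DMSO day 4 replicate 2 had the smallest interquartile range, 2.56, against a median of 3.05. These arrays are named below where a value turns on them. In bulk RNA, fewer cells expressing a gene and less RNA per cell cannot be told apart.

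NEO1 (chromosome 15, 73051692 to 73305206) was measured in all 9 lines, with DMSO means that spanned more than 5 log2 units. On its brightest probe set, 204321_at, the mean was 12.58 ± 0.21 in NCI-H446 (SD, n = 7) and 7.13 ± 0.14 in H69 (SD, n = 2). Between these, in rising order, lay COLO668 at 8.78, NCI-H146 at 9.37, NCI-H510 at 9.47, NCI-H526 at 10.11, H1417 at 10.36, SHP-77 at 10.49 and H2171 at 11.10. Neighbours in this order had DMSO arrays that did not overlap, apart from NCI-H146 with NCI-H510 and H1417 with SHP-77. The second probe set, 225270_at, had the same lines at the ends, with 10.56 in NCI-H446 and 5.38 in H69, and followed the first with Pearson's r of 0.97 over the 42 group means. The third, 229877_at, was dim in all 9 lines.

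NEO1 was higher under 552A than under DMSO in each of the 21 comparisons of a line on a day, by 0.02 to 0.84 on the log2 scale on 204321_at. In NCI-H526 the signal was 10.56 to 10.88 (median 10.69) in the 7 552A arrays, against 10.05 to 10.18 (median 10.10) in the 6 DMSO arrays. In NCI-H510 it was 9.93 to 10.13 (median 10.01) in the 6 552A arrays, against 9.39 to 9.60 (median 9.47) in the 6 DMSO arrays. In both lines all 552A arrays lay above all DMSO arrays, with a response of 0.58 ± 0.06 in NCI-H526 and 0.56 ± 0.06 in NCI-H510, or 1.50-fold and 1.47-fold. COLO668 had 9.01 to 9.74 (median 9.18) in the 6 552A arrays, against 8.62 to 8.91 (median 8.80) in the 6 DMSO arrays. NCI-H146 had 9.54 to 9.83 (median 9.71) in the 6 552A arrays, against 9.10 to 9.53 (median 9.37) in the 6 DMSO arrays. The arms were again separate in these 2 lines, and the response was 0.52 ± 0.06 in COLO668 and 0.34 ± 0.06 in NCI-H146. In NCI-H446, the line with the highest NEO1 signal, the values were 12.67 to 12.95 (median 12.87) in the 6 552A arrays, against 12.16 to 12.75 (median 12.67) in the 7 DMSO arrays. In SHP-77 they were 10.49 to 10.79 (median 10.63) in the 8 552A arrays, against 10.34 to 10.67 (median 10.46) in the 6 DMSO arrays. The arms overlapped in both, and the response was 0.25 ± 0.06 in NCI-H446 and 0.10 ± 0.06 in SHP-77, the smallest of the 9 lines.

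The lines sampled at day 4 alone gave 2 arrays an arm. H1417 had 10.90 and 11.01 in the 552A arrays, against 10.30 and 10.41 in the DMSO arrays, a response of 0.60 ± 0.10. H2171 had 11.44 and 11.37 in the 552A arrays, against 11.10 and 11.10 in the DMSO arrays, a response of 0.30 ± 0.10. H69, the line with the lowest NEO1 signal, had 7.25 and 7.53 in the 552A arrays, against 7.03 and 7.23 in the DMSO arrays, a response of 0.26 ± 0.10. Arms that do not overlap are common with 2 arrays each: the 552A arrays lay wholly above the DMSO arrays in 24.2% of all gene and line pairs in these 3 lines and wholly below in 24.5%. In the 6 time course lines the shares were 3.44% above and 2.59% below. NEO1 was wholly above in 4 of 6 time course lines and 3 of 3 day 4 lines.

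The 6 NEO1 responses called higher were those of NCI-H526, NCI-H510, COLO668, NCI-H146, NCI-H446 and H1417. Over all genes and the 9 lines, 5.94% of responses were called higher and 4.38% lower. Since NEO1 was chosen for these responses, nothing is read from its count. At day 4, the day shared by all lines, the ratio averaged 0.43 ± 0.06 (SE over 9 lines) and was above 0 in 9 of 9 lines. On 225270_at it averaged 0.48 ± 0.08 (SE over 9 lines), also above 0 in 9 of 9, and 20 of its 21 ratios were above 0, the exception being SHP-77 at day 2 with -0.10. The lowest DMSO value of NCI-H446, 12.16, came from the array with the smallest interquartile range, and without it the response was 0.20 and still called. The call in NCI-H446 was lost when that line was fitted alone. The plot of NEO1 in every array shows both probe sets.

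**Figure D1:**
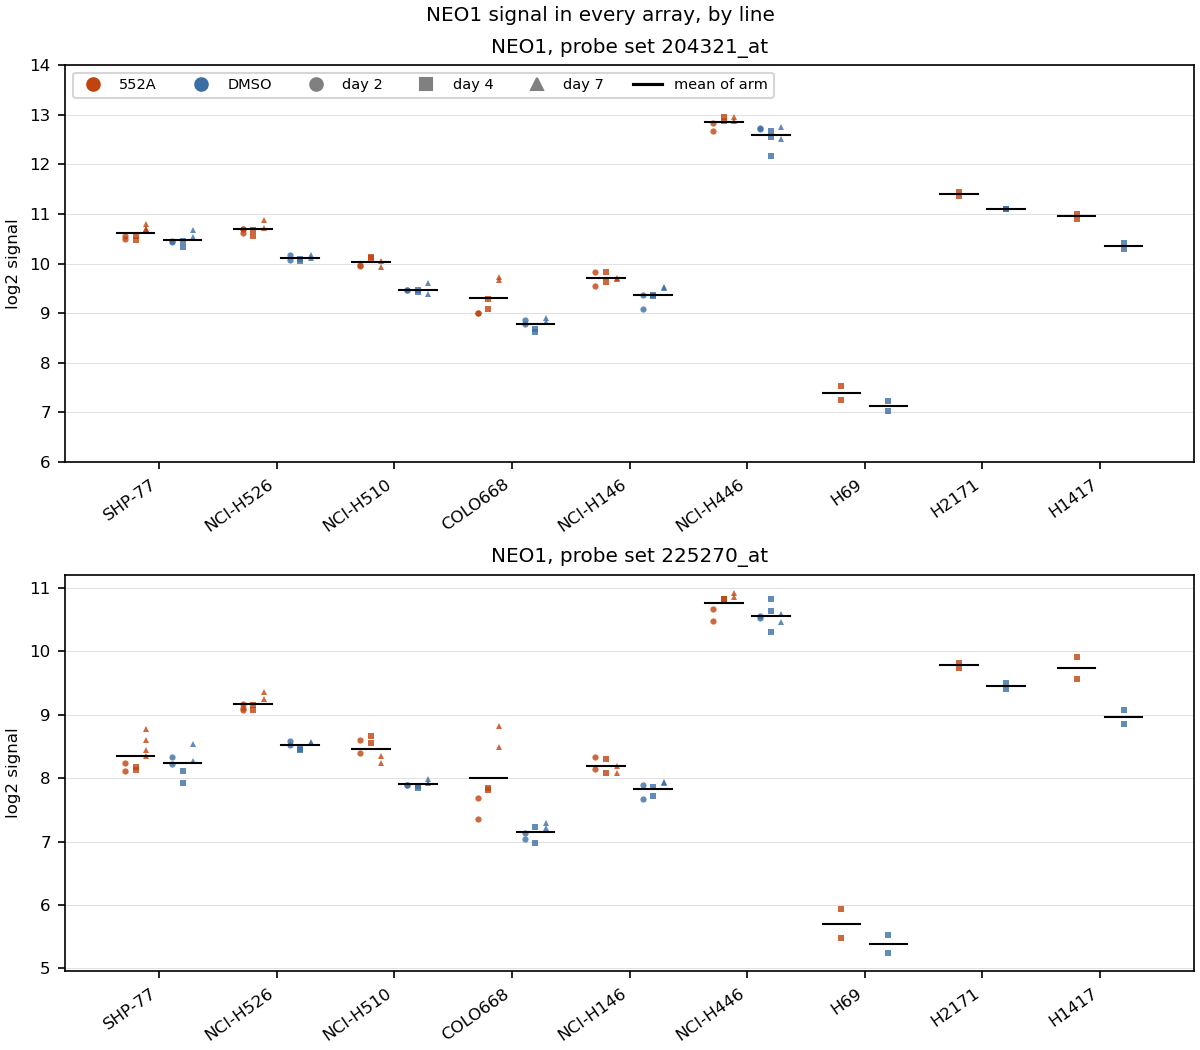
Log2 signal of NEO1 on probe sets 204321_at (top) and 225270_at (bottom) in every array, by line, with 552A left of DMSO, marker shape for the day and a bar for the mean of the arm. On 204321_at the 552A arrays lie above all DMSO arrays in 7 of 9 lines and overlap them in SHP-77 and NCI-H446.

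The NEO1 ratios were followed by day in the 6 time course lines. In COLO668 the response was larger on each later day, with 0.19 ± 0.10 at day 2, 0.54 ± 0.10 at day 4 and 0.84 ± 0.10 at day 7, so that day 7 exceeded day 2 by 0.65. On 225270_at the COLO668 ratios were 0.43, 0.72 and 1.41 at days 2, 4 and 7. At day 7 the mean ACTB 3′ minus 5′ signal of COLO668 was 0.97 in the 552A arrays and 0.71 in the DMSO arrays. Without the 5 arrays with a high value and the array of smallest range the day 7 excess was 0.64. That setting left a single array in each arm of COLO668 at day 7. NCI-H146 ran the other way, with 0.45 ± 0.10, 0.37 ± 0.10 and 0.19 ± 0.10 at days 2, 4 and 7. NCI-H526 stayed between 0.54 and 0.66 and NCI-H510 between 0.50 and 0.67. Of the 60 comparisons of day 7 with day 2 for the 10 genes in 6 lines, the responses of NEO1 and NTN4 in COLO668 were called higher at day 7 and none was called lower, where 0.692% were called higher and 0.252% lower over all genes.

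**Figure D2:**
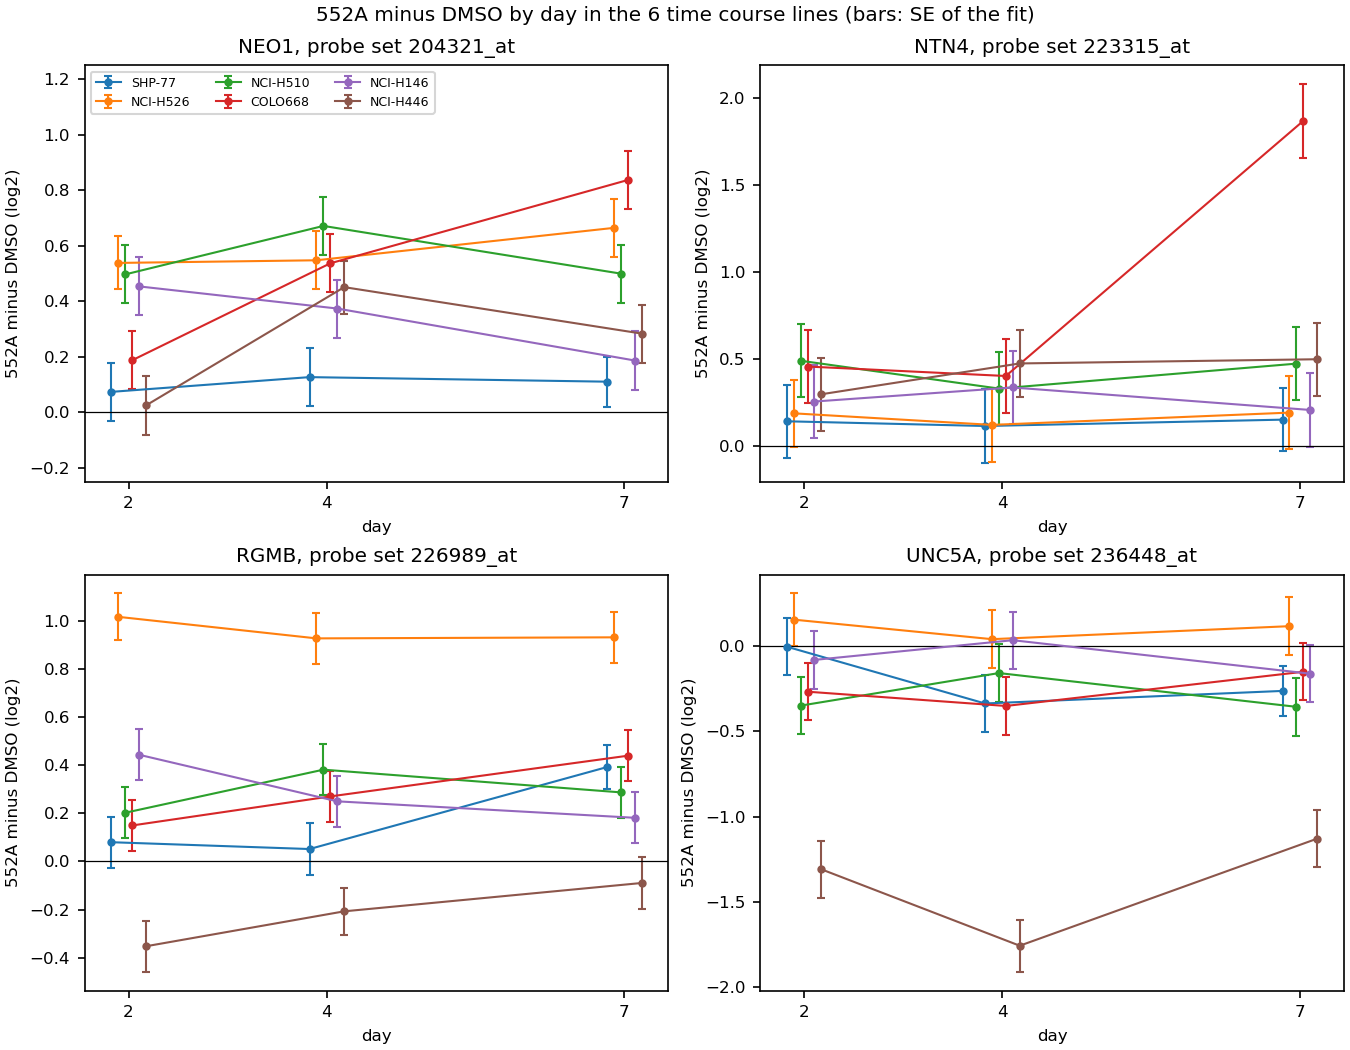
Responses, 552A minus DMSO on the log2 scale, at days 2, 4 and 7 in the 6 time course lines for NEO1, NTN4, RGMB and UNC5A, with bars for the SE of the fit. In COLO668 NEO1 reaches 0.84 and NTN4 1.87 at day 7. In NCI-H446 UNC5A, on 236448_at, lies at or below -1.13 on every day.

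DCC (chromosome 18, 52340197 to 53535899), the classical netrin 1 receptor, was dim in SHP-77, NCI-H526, NCI-H510 and COLO668 and present in the other 5 lines. On 238914_at the DMSO means of the dim lines lay between 4.04 and 4.25, and those of the others at 8.09 in H2171, 8.11 in NCI-H446, 9.14 in H1417, 9.49 in NCI-H146 and 10.29 in H69. H2171 and NCI-H446 overlapped, and the other neighbours among these 5 did not. The line lowest in NEO1, H69, was thus the line highest in DCC. Over the 9 DMSO means, gene by gene, NEO1 and DCC had Pearson's r of -0.34, a description of 9 lines.

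DCC was lower under 552A in H1417, a difference that was called. On 238914_at the arrays of H1417 had 7.08 and 7.05 in the 552A arrays, against 9.15 and 9.14 in the DMSO arrays, a response of -2.08 ± 0.23, or 4.23-fold lower. On 206939_at, the brightest DCC probe set, they had 6.16 and 6.40 in the 552A arrays, against 7.41 and 7.19 in the DMSO arrays, a response of -1.02 ± 0.17. The arms were far apart on both probe sets. In H69 and H2171 the responses on 238914_at were -0.34 and -0.53, and neither was called. In NCI-H146 and NCI-H446, where DCC was also present, they were -0.10 and -0.05, with arms that overlapped. In COLO668 the 552A arrays of day 7 had 5.08 and 4.53, against 4.11 and 4.16 in the DMSO arrays, all of them dim.

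UNC5A (chromosome 5, 176810559 to 176880898), a netrin receptor with a death domain, had DMSO means of 10.81 ± 0.29 in NCI-H446 (SD, n = 7) and 7.19 ± 0.49 in SHP-77 (SD, n = 6) at the ends of its order on 236448_at. H69 at 10.32, NCI-H510 at 9.54 and COLO668 at 9.14 were each separate from their neighbours, while H2171, NCI-H146, H1417 and NCI-H526 overlapped in turn between 8.74 and 8.29. NCI-H446 was thus highest in both NEO1 and UNC5A. The other UNC5A probe set, 243833_at, was flat, between 7.54 and 7.80.

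On 236448_at UNC5A was lower under 552A in NCI-H446 on every day. The values were 9.46 and 9.20 in the 552A arrays, against 10.59 and 10.69 in the DMSO arrays at day 2. At day 4 they were 9.12 and 9.05 in the 552A arrays, against 10.43, 10.77 and 11.34 in the DMSO arrays. At day 7 they were 9.71 and 9.87 in the 552A arrays, against 10.91 and 10.93 in the DMSO arrays. No 552A array reached the lowest DMSO array, and the response was -1.40 ± 0.09, or 2.64-fold lower. On 243833_at there was no such fall in NCI-H446. Its means were 7.88 in both arms at day 2. At day 4 they were 7.79 under 552A and 7.69 under DMSO, and at day 7 they were 7.65 and 7.57. H2171, on 236448_at, had 8.09 and 8.15 in the 552A arrays, against 8.55 and 8.92 in the DMSO arrays. Its response was -0.61 ± 0.17. H1417 went the other way, with 9.16 and 8.90 in the 552A arrays, against 8.41 and 8.45 in the DMSO arrays and a response of 0.60 ± 0.17. NCI-H510 had a response of -0.29 ± 0.10, with 9.13 to 9.37 (median 9.25) in the 6 552A arrays, against 9.44 to 9.66 (median 9.51) in the 6 DMSO arrays. The calls in H2171 and H1417 were lost when each line was fitted alone, and the call in H2171 also with the mean of both probe sets (-0.27). The H2171 call was also lost without DMSO replicate 2 (-0.43), 552A replicate 1 (-0.59) or 552A replicate 2 (-0.64) of that line, and the H1417 call without DMSO replicate 1 (0.59), DMSO replicate 2 (0.62) or 552A replicate 1 (0.47). The NCI-H510 call was lost on leaving out any 1 array of that line other than 552A day 2 replicate 2, with responses of -0.30 to -0.26. In the remaining 5 lines the responses lay between -0.26 in COLO668 and 0.10 in NCI-H526, and none was called. The COLO668 response was called after quantile normalization (-0.31), with a stricter filter, with the mean of both probe sets (-0.21) and with the replicate number as a block (-0.26). It was also called with the line fitted alone and without its DMSO day 7 replicate 2 (-0.31).

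UNC5B (chromosome 10, 71212570 to 71302864), the UNC5 receptor known for its part in vessel guidance, gave different pictures on its 3 probe sets. The brightest, 41856_at, was nearly flat, with DMSO means between 8.90 and 9.58, and no response of it was called. On 226899_at the DMSO means ran between 5.03 in COLO668 and 9.20 in NCI-H146, with SHP-77 at 5.94 also dim. NCI-H146, NCI-H446 at 9.02 and H69 at 8.96 formed an overlapping top, above H1417 at 8.26, H2171 at 7.93, NCI-H526 at 7.88 and NCI-H510 at 6.10. The third, 213100_at, had the same lines at the ends and an r of 0.96 with 226899_at over the 42 groups.

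The UNC5B responses on 226899_at had both signs. NCI-H510 was 6.50 to 7.10 (median 6.84) in the 6 552A arrays, against 6.00 to 6.27 (median 6.05) in the 6 DMSO arrays, a response of 0.71 ± 0.16. NCI-H146 was 8.02 to 8.88 (median 8.69) in the 6 552A arrays, against 8.93 to 9.42 (median 9.25) in the 6 DMSO arrays, a response of -0.63 ± 0.16. The arms did not overlap in either line. On 213100_at the responses were 0.18 ± 0.06 in NCI-H510, -0.50 ± 0.06 in NCI-H146, -0.35 ± 0.06 in NCI-H446 and 0.58 ± 0.11 in H1417. The fit over 29598 probe sets called NCI-H510 higher and NCI-H146 lower on 226899_at, and NCI-H146 and NCI-H446 lower and H1417 higher on 213100_at. Whichever probe set was taken, NCI-H146 had a response below 0 and H1417 one above 0.

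UNC5C (chromosome 4, 95162504 to 95548973) and UNC5D (chromosome 8, 35235475 to 35796540), the remaining netrin receptors of the family, were low in most lines. On 227838_at UNC5C stood at 8.24 ± 0.35 in NCI-H446 (SD, n = 7) and between 6.71 and 6.96 in the other 8 lines. Its other 4 probe sets did not pass the filter. In NCI-H446 the day 4 arrays had 7.93 and 7.93 in the 552A arrays, against 8.10, 8.97 and 8.36 in the DMSO arrays, and the highest DMSO value was that of the array with the smallest interquartile range. At day 7 the same line had 8.58 and 8.55 in the 552A arrays, against 8.22 and 8.07 in the DMSO arrays, so the ratio was -0.55 at day 4 and 0.42 at day 7. No UNC5C response averaged over days was called. UNC5D stood at 7.28 ± 0.11 in SHP-77 (SD, n = 6) and 7.14 ± 0.52 in NCI-H510 (SD, n = 6) and was dim in the other 7 lines. Its responses lay between -0.14 and 0.21, and none was called. In NCI-H510 the response was 0.37 and called without 552A day 2 replicate 1, and at day 7 alone it was 0.62 and called.

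RGMA and RGMB encode the ligands that neogenin binds, and both were above the dim limit in all 9 lines on their brightest probe set. RGMB (chromosome 5, 98768632 to 98796494) had DMSO means on 226989_at of 12.16 ± 0.02 in H69 (SD, n = 2), 10.76 in H1417, 9.94 in H2171 and 9.73 in NCI-H146, each separate from the next. NCI-H510 at 9.29, COLO668 at 9.02, SHP-77 at 9.01 and NCI-H526 at 8.999 followed, and NCI-H446 was lowest at 8.58. On this probe set RGMB had H69 at the top and NCI-H446 at the bottom, the lines at the opposite ends for NEO1, and r between the 2 genes over 9 DMSO means was -0.63. The probe sets 227339_at, 227340_s_at and 242450_at also had their highest mean in H69. On 227339_at and 242450_at the lowest line was NCI-H526, at 7.50 and 5.01, against 8.59 and 7.17 in NCI-H446.

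In NCI-H526 RGMB was 9.83 to 10.13 (median 9.90) in the 7 552A arrays, against 8.85 to 9.17 (median 8.97) in the 6 DMSO arrays. No arrays overlapped, and the response was 0.96 ± 0.06, or 1.94-fold, with daily ratios of 1.02, 0.93 and 0.93 at days 2, 4 and 7. The 227339_at and 227340_s_at probe sets gave 0.56 ± 0.07 and 0.88 ± 0.10 in that line. On 242450_at the NCI-H526 response was 0.40, and it was not called when that probe set stood for the gene. Smaller responses on 226989_at were called in NCI-H510 (0.29 ± 0.06), COLO668 (0.29 ± 0.06) and NCI-H146 (0.29 ± 0.06), and none of these 3 lines was called on the other 3 RGMB probe sets. NCI-H446 was called lower, with 8.23 to 8.53 (median 8.34) in the 6 552A arrays, against 8.38 to 8.75 (median 8.54) in the 7 DMSO arrays and a response of -0.22 ± 0.06. That response was 0.05 on 227339_at and 0.01 on 227340_s_at, and the call was lost with the mean of all probe sets (-0.04) and when the line was fitted alone. It was also lost without DMSO day 2 replicate 2 (-0.18), DMSO day 7 replicate 2 (-0.15), 552A day 2 replicate 2 (-0.21), 552A day 4 replicate 2 (-0.18) or 552A day 7 replicate 1 (-0.20). In H69, with the highest level, the response was -0.14.

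RGMA (chromosome 15, 93035271 to 93089211) had DMSO means on 223468_s_at of 10.83 ± 0.08 in NCI-H146 (SD, n = 6) and 10.05 in H2171, above 9.77 in NCI-H526 and values between 8.27 and 9.08 in the other 6 lines. In H1417 the arrays had 10.03 and 10.15 in the 552A arrays, against 8.89 and 9.23 in the DMSO arrays, a response of 1.03 ± 0.25, or 2.04-fold. Without DMSO replicate 1 the response in H1417 was 0.87 and not called. H2171 had 10.59 and 10.54 in the 552A arrays, against 10.08 and 10.01 in the DMSO arrays, and H69 had 9.12 and 9.16 in the 552A arrays, against 8.81 and 8.86 in the DMSO arrays. All 3 day 4 lines thus had 552A arrays above the DMSO arrays, where 24.2% of all gene and line pairs in these lines did. The responses of 0.52 in H2171 and 0.30 in H69 were not called. In COLO668 the values were 8.55 to 9.01 (median 8.80) in the 6 552A arrays, against 7.91 to 8.58 (median 8.32) in the 6 DMSO arrays, a response of 0.51 ± 0.14, made up of 0.07, 0.82 and 0.64 at days 2, 4 and 7. The COLO668 call was lost without the high ACTB arrays and the array with the largest interquartile range (0.45). That setting left a single array in each arm of COLO668 at day 7. In the other 5 time course lines the RGMA response lay between -0.15 and 0.14. In NCI-H510 the 6 552A arrays, at 8.89 to 9.03, lay below the 6 DMSO arrays, at 9.04 to 9.12. Of all gene and line pairs in the time course lines, 2.59% lay wholly below, and the NCI-H510 response was not called. The other RGMA probe set, 234406_at, did not pass the filter and was flat, with DMSO means between 6.29 and 6.49. Its ratio was -0.02 in H1417 at day 4 and -0.32 in COLO668 at day 7, and 8 of its 21 ratios were above 0.

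**Figure D3:**
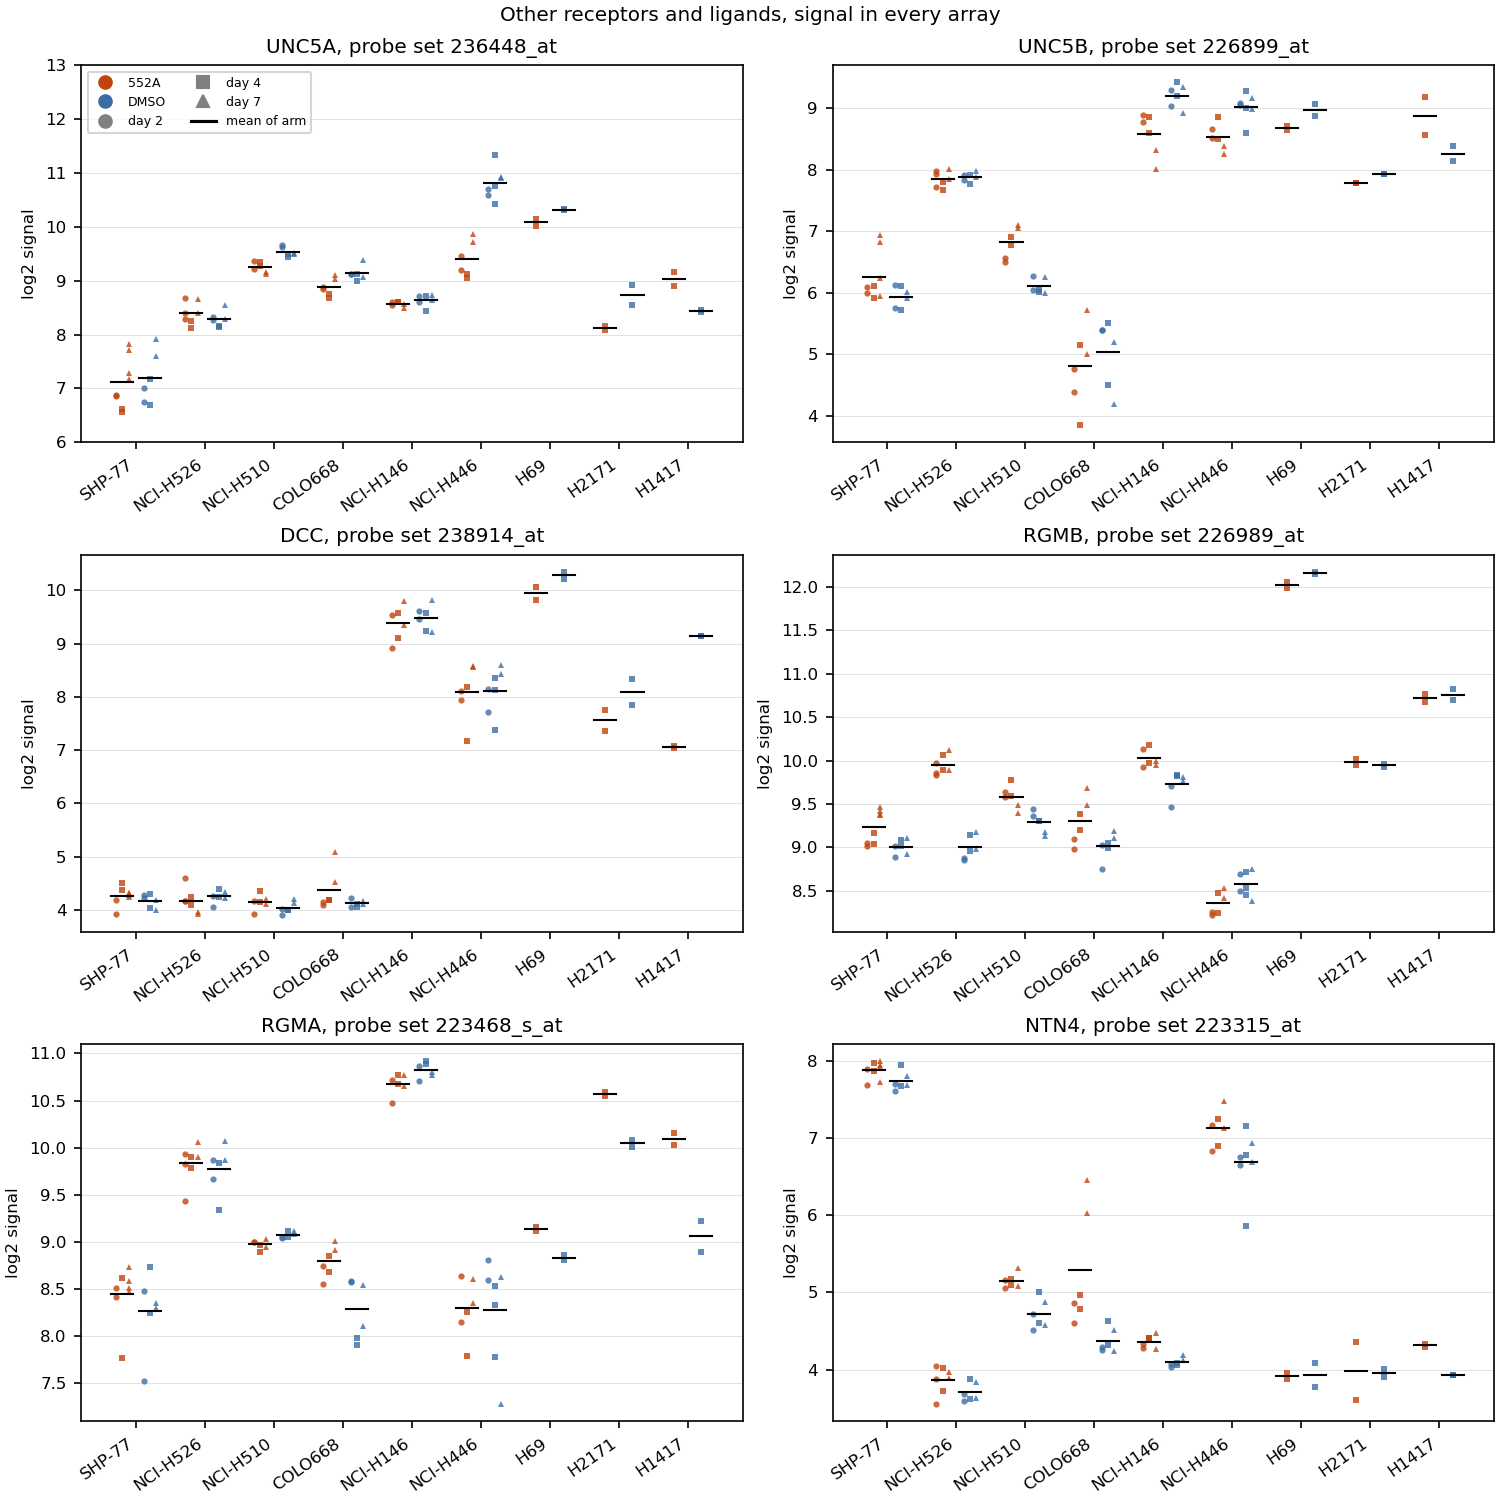
Log2 signal in every array, by line, of UNC5A, UNC5B, DCC, RGMB, RGMA and NTN4 on the probe sets named above each panel, with 552A left of DMSO, marker shape for the day and a bar for the mean of the arm. UNC5A lies below all DMSO arrays in NCI-H446, DCC separates H1417 by arm, and RGMB separates NCI-H526 by arm.

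NTN4 (chromosome 12, 95657807 to 95791155), a netrin that binds laminins in basement membranes, was dim under DMSO in all lines but SHP-77, at 7.73 ± 0.12 (SD, n = 6), and NCI-H446, at 6.69 ± 0.40 (SD, n = 7). In COLO668 it was 4.60 and 4.87 in the 552A arrays, against 4.30 and 4.26 in the DMSO arrays at day 2. At day 4 it was 4.97 and 4.78 in the 552A arrays, against 4.63 and 4.31 in the DMSO arrays. At day 7 it was 6.03 and 6.46 in the 552A arrays, against 4.24 and 4.52 in the DMSO arrays. The arms overlapped only when days were pooled, and the ratio was 0.46 ± 0.21 at day 2, 0.40 ± 0.21 at day 4 and 1.87 ± 0.21 at day 7, an excess of 1.41 at day 7 over day 2. The 552A array of day 7 with the higher NTN4 value also had the ACTB signal of 1.35 above the median array. Without the 5 high ACTB arrays and the array of largest range, the excess was 1.06, and without the 5 and the array of smallest range it was also 1.06. Both settings left a single array in each arm of COLO668 at day 7, so only the size is given. In NCI-H510 NTN4 was 5.05 to 5.31 (median 5.13) in the 6 552A arrays, against 4.52 to 4.9996 (median 4.66) in the 6 DMSO arrays, all dim, a response of 0.43 ± 0.12. NCI-H446 had 6.82 to 7.47 (median 7.15) in the 6 552A arrays, against 5.86 to 7.15 (median 6.75) in the 7 DMSO arrays, a response of 0.42 ± 0.12. The lowest of these DMSO values, 5.86, came from the array with the smallest interquartile range, and without it the response was 0.30 and not called. The NCI-H446 call was also lost without DMSO day 2 replicate 2 (0.41), DMSO day 7 replicate 2 (0.38), 552A day 2 replicate 1 (0.37), 552A day 4 replicate 1 (0.36) or 552A day 7 replicate 2 (0.37), and the NCI-H510 call without DMSO day 4 replicate 1 (0.37). Over the 21 ratios of line and day, 20 were above 0, the exception being H69 at -0.01.

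NTN1 (chromosome 17, 9003087 to 9244000), the founding netrin of vertebrates, gave little signal. The probe set that passed the filter, 237847_at, was flat, with DMSO means between 7.35 and 7.56, and no response of it was called. On 227816_at, which did not pass the filter, the DMSO means were 7.28 in NCI-H526 and 6.56 in NCI-H146, and dim in the other 7 lines. In NCI-H526 that probe set was 6.66 to 6.96 (median 6.80) in the 7 552A arrays, against 7.13 to 7.61 (median 7.26) in the 6 DMSO arrays. In NCI-H146 it was 6.89 to 7.39 (median 7.11) in the 6 552A arrays, against 6.30 to 6.66 (median 6.59) in the 6 DMSO arrays. The 552A arrays lay below the DMSO arrays in NCI-H526 and above them in NCI-H146, by -0.47 and 0.56, and neither difference was tested.

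**Figure D4:**
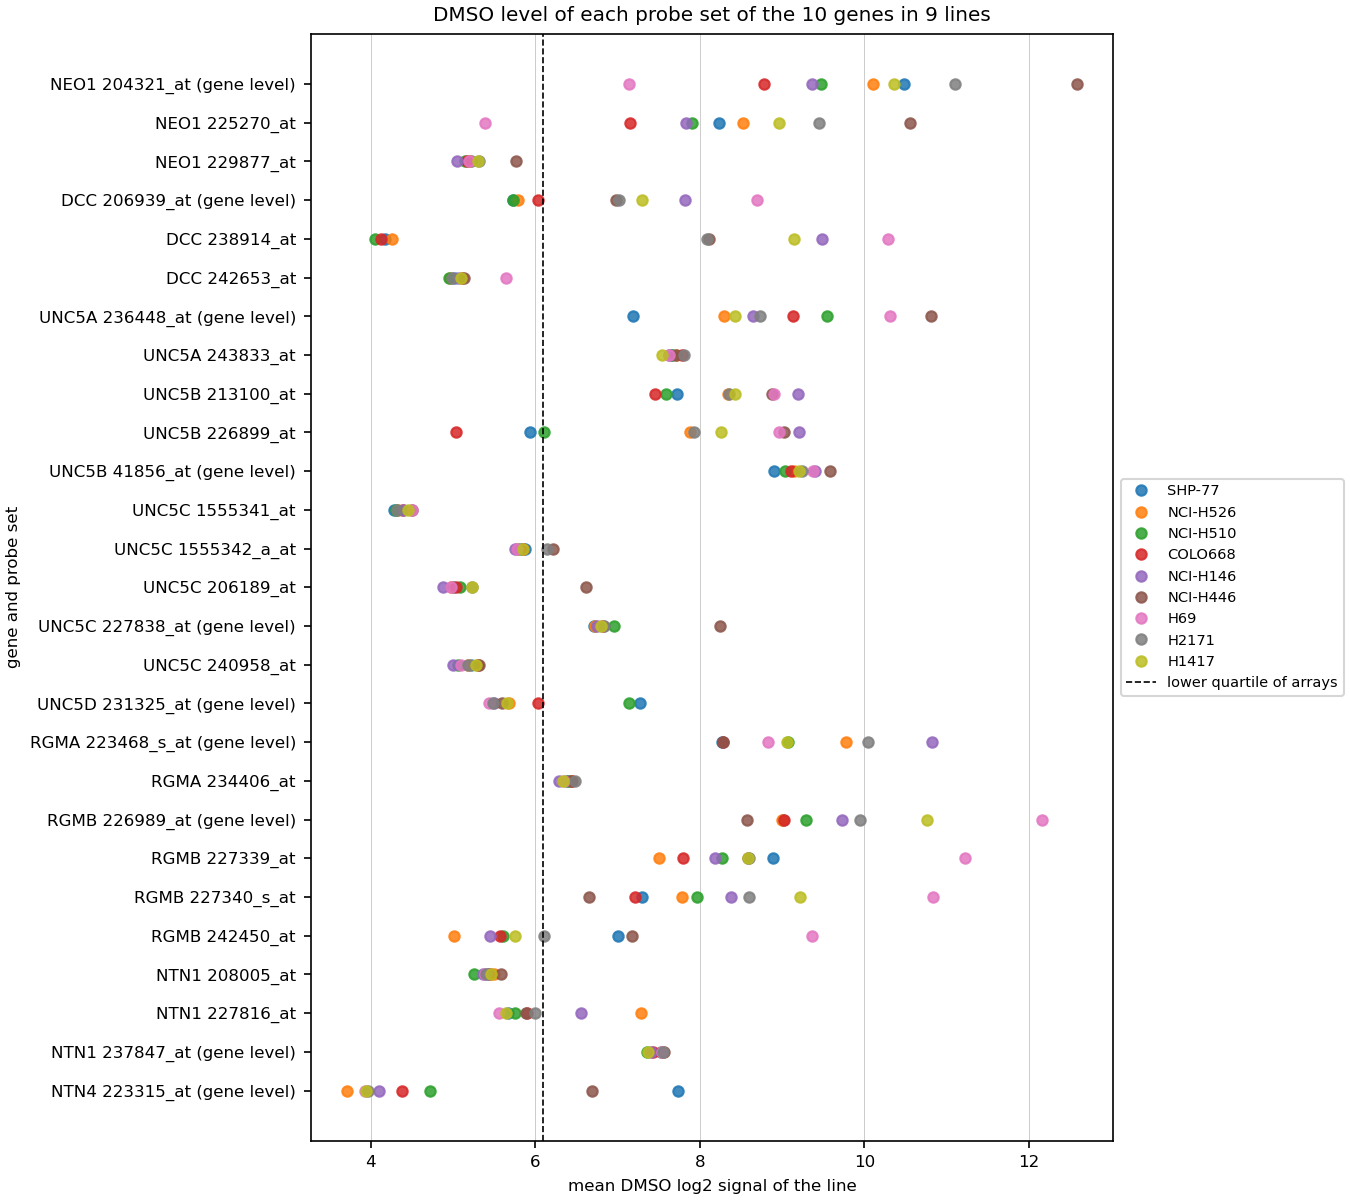
Mean log2 signal under DMSO of each of the 27 probe sets in the 9 lines, with one colour per line and a dashed line at 6.09, the dim limit. NEO1 spans 7.13 to 12.58 on 204321_at, DCC on 238914_at leaves 4 lines near 4 and 5 lines above 8, and NTN1 on 237847_at does not leave 7.35 to 7.56.

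Over the 10 genes and 9 lines, 16 responses were called higher and 5 lower of 90, where the share over all genes was 5.94% higher and 4.38% lower. COLO668 had 4 of the 10 genes called higher, against 12.3% of all genes in that line. NCI-H510 had 3 (8.6% of all genes) and H1417 had 3 (5.53%), while NCI-H526 had 2 (10.7%), NCI-H146 had 2 (4.27%) and NCI-H446 had 2 (4.31%). SHP-77, H69 and H2171 had 0 in this limma fit, against 3.87%, 2.44% and 1.43% of all genes in those lines. The median ratio at day 4 over the 10 genes was 0.03, against 0.00 over all genes. Over the 18 probe sets that passed, 25 of 162 pairs of probe set and line were called higher and 10 lower, against 4.86% and 3.41% of all probe sets. A probe set passes the filter through the line where it is bright, so these counts describe the probe sets that passed and not all 27. A moderated F test of the response between the 6 time course lines passed its threshold for 5 of the 10 genes, against 38.1% of all genes, but it uses the responses that chose the genes, and nothing is read from it. Without the 5 high ACTB arrays and the array of smallest range, 18 responses were called higher and 7 lower. The share over all genes is not given for that setting.

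**Figure D5:**
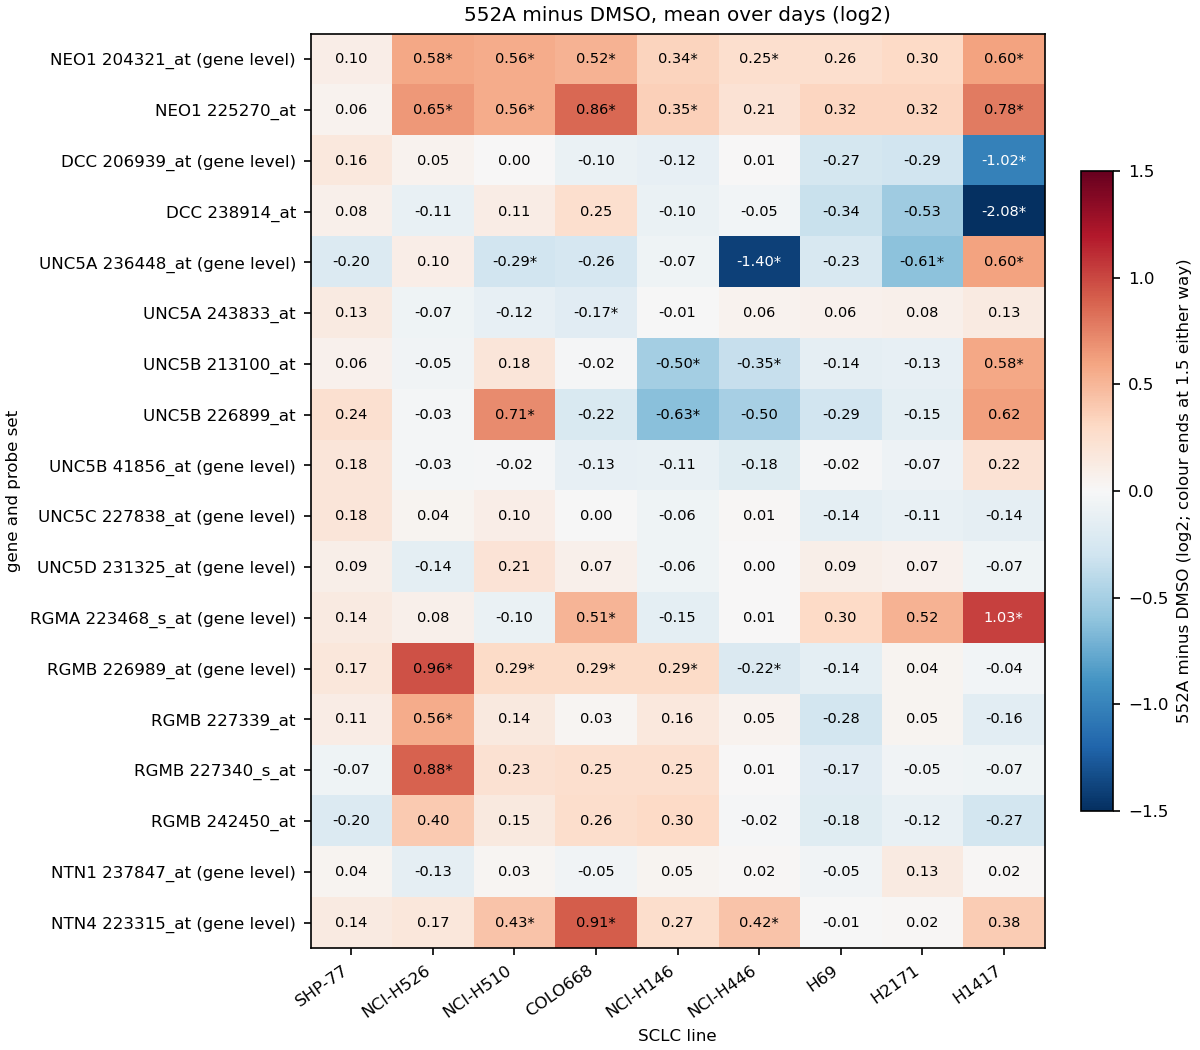
Response of the 18 probe sets that passed the filter in the 9 lines, 552A minus DMSO on the log2 scale as the mean over days, with red above 0, blue below 0 and an asterisk where the fit over 29598 probe sets gave an adjusted p below 0.05. The NEO1 rows are above 0 in every line, whereas UNC5A, UNC5B and RGMB have both signs.

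The change of the 10 genes with time in culture was not used to choose them, and it was tested as DMSO day 7 minus DMSO day 2 in the 6 time course lines. Of 60 tests, 1 was called higher and 1 lower, against 1.19% and 1.25% over all genes. Over the 18 probe sets that passed, 1 of 108 tests was called higher and 1 lower, against 0.846% and 1.2% of all probe sets. UNC5A rose in SHP-77, where the DMSO arrays had 7.93 and 7.60 at day 7, against 7.00 and 6.74 at day 2, a change of 0.89 ± 0.17 (SE of the limma fit, adjusted p = 0.000714). The mean ACTB 3′ minus 5′ signal of these arrays was 1.00 at day 7 and 0.19 at day 2, and its part in the change was not tested. Without SHP-77 DMSO day 7 replicate 1, the array with the highest ACTB value, the change was 0.73 and not called (adjusted p = 0.0914). UNC5D fell in NCI-H510, with 7.05 and 6.45 at day 7, against 7.39 and 7.99 at day 2. The change was -0.94 ± 0.18 (SE of the limma fit, adjusted p = 0.00491), and 0.345% of all genes were called lower in that line. The UNC5D call was lost without NCI-H510 DMSO day 2 replicate 2 (-0.64, adjusted p = 0.296) or without NCI-H510 DMSO day 7 replicate 2 (-0.64, adjusted p = 0.412). For NEO1 the changes lay between -0.10 in NCI-H446 and 0.29 in NCI-H146, with adjusted p-values of 0.387 or more, and for RGMB between -0.25 in NCI-H510 and 0.26 in COLO668, with adjusted p-values of 0.174 or more.

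The other genes of the pathway were taken as a list of 56, of which 50 were tested: further ligands and receptors, cleaving enzymes, adaptors of the receptor tails, partners in receptor-induced death and ubiquitin ligases. Of 450 responses, 60 were called higher and 18 lower, against 5.94% and 4.38% over all genes. With the line as the replicate at day 4, limma called 0 of the 50, 8 had an unadjusted p below 0.05, and 8 of all 15352 genes (0.0521%) were called. The median ratio at day 4 was 0.04 over the 50, against 0.00 over all genes.

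The adaptors and effectors of the receptor tails held 28 of the higher and 11 of the lower calls among 22 genes and 198 pairs. The shares over all genes were 5.94% and 4.38%. ABLIM1, an actin-binding protein that acts downstream of netrin receptors in the nematode, rose in 6 lines, up to 0.88 ± 0.09 in H1417 (limma, adjusted p = 2.73e-11), where it averaged 10.67 in the 2 552A arrays and 9.79 in the 2 DMSO arrays. MYO10, a myosin that carries netrin receptors in filopodia, rose in 5 lines. Its means in SHP-77 were 7.93 in the 8 552A arrays and 7.10 in the 6 DMSO arrays, a response of 0.74 ± 0.06 (limma, adjusted p = 5.06e-13), and in NCI-H446 it averaged 11.96 in the 6 552A arrays and 11.30 in the 7 DMSO arrays, a response of 0.65 ± 0.06 (limma, adjusted p = 1.92e-11). LMO4, a LIM domain protein that binds the tail of neogenin, rose in 5 lines and fell in SHP-77 (-0.17 ± 0.04). The largest of its changes was in COLO668, at 0.69 ± 0.04 (limma, adjusted p = 2.3e-18).

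FLRT2, a membrane protein that binds UNC5 receptors, rose in 3 lines. In H1417 it averaged 10.49 in the 2 552A arrays and 8.83 in the 2 DMSO arrays, a response of 1.66 ± 0.21 (limma, adjusted p = 2.63e-08), with 0.63 in COLO668 and 0.60 in NCI-H510. NCK2, an adaptor that links receptors to the actin machinery, fell in NCI-H510 (-0.37 ± 0.06, limma, adjusted p = 8.07e-06) and SHP-77 (-0.24 ± 0.06). VASP, an actin elongation factor, fell in H1417 (-0.52 ± 0.12, limma, adjusted p = 0.00126) and NCI-H526 (-0.21 ± 0.07). TRIM9, a ubiquitin ligase that binds DCC, fell in NCI-H510 (-0.30 ± 0.06) and COLO668 (-0.29 ± 0.06) and rose in H1417 (0.49 ± 0.11), the line where DCC was lower under 552A. By class, 9 of 72 pairs of gene and line were called higher and 1 lower for 8 further ligands. For 7 further receptors 8 of 63 pairs were higher and 3 lower, and for 5 cleaving enzymes 4 of 45 and 2. For 4 partners in receptor-induced death 6 of 36 pairs were higher and 0 lower, and for 4 ubiquitin ligases 5 of 36 and 1. The shares over all genes were 5.94% higher and 4.38% lower. With time in culture 1 of 300 tests of the list was called higher and 2 lower, against 1.19% and 1.25% over all genes.

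The genes whose responses ran most like that of NEO1 were found by Pearson's r over the 21 ratios of line and day among 15342 other genes. They were SLC35B4 (0.91), NFIB (0.89), DENND5A (0.87), SAP30L (0.87) and BBS1 (0.86). Over the 9 DMSO means, the genes most like NEO1 were TFDP2 (0.96), AP4B1 (0.94), GLTP (0.94), TMEM167B (0.91) and LINC02520 (0.90). The ratios of a line and day share their arrays, so these r values are descriptions. Among the other 9 genes of the receptor and ligand set, r with NEO1 over the ratios was highest for RGMB (0.54) and NTN4 (0.52) and lowest for NTN1 (-0.40), and over the DMSO means it was highest for UNC5C (0.63).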

How the data were processed

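The data comprise 88 arrays (Affymetrix HG-U133 Plus 2.0) with RNA of 9 established SCLC lines. The authors deposited 1 log2 signal per probe set and array. Which program, background correction and scaling made them is not given in the sources used here. Since the medians of the arrays (7.36 to 7.46) differed by at most 0.097, under the limit of 0.5, no array was rescaled. The precision is limited by the number of arrays, 2 in most groups. No 2 arrays held identical values, and the highest correlation between arrays was 0.998.

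Of 54675 probe sets, 41091 had 1 gene symbol in GEO's platform annotation, 1801 had several, 11721 had none and 62 were controls. Only those with 1 symbol were used, and 54 of their Entrez identifiers were not matched to a newer list of genes. A probe set was kept where at least 1 group mean exceeded 7.41, the median of all values, and the brightest kept probe set, without the _x_at type where possible, stood for its gene. This left 15352 genes. Symbols with an antisense suffix count as other genes. limma 3.58.1 (R 4.3.3, with data.table at 1.17.8) fitted a mean for each of the 42 groups of line, treatment and day, with 46 residual degrees of freedom and Benjamini-Hochberg adjustment over all genes, 2-sided, and an adjusted p below 0.05 was called. A second fit used all 29598 kept probe sets. The fit was tested on simulated data. Sequences and plots were handled with matplotlib 3.10.9, numpy 2.4.6, pandas 2.3.3 and Python 3.11.15.

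The 10 genes, the gene lists and the tests were chosen with earlier results of these data known. Named beside the 10 genes are the 4 pathway genes per direction called in most lines, and the 5 genes most like NEO1 by each of 2 measures. These were ABLIM1, MYO10, LMO4 and FLRT2 for higher calls and NCK2, VASP, TRIM9 and LMO4 for lower ones. Of the 56 pathway genes, 6 were not analysed here. Alternatives covered normalization, filters, choice of probe set, single arrays and lines left out, the replicate number as a block, an intensity trend and fits of each line alone.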

Additional observations from a re-analysis of the deposited data

Results flagged for a closer look

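Of 20 sets of values checked for a value far from the others, 3 held one, where chance gives about 1 in 20. In the 4 arrays of SHP-77 under 552A at day 7, NEO1 was 10.79 in replicate 1 and within a narrow range near 10.69 in the others. The ACTB 3′ minus 5′ signal of replicate 1 was 0.896 above the median array. Replicate 2 stood nearly as high in ACTB, at 0.883, with NEO1 at 10.69. Among the 9 day 4 ratios of DCC on 206939_at, that of H1417 stood apart at -1.02. Among those of UNC5C, that of NCI-H446 stood apart at -0.55, and it rests in part on the DMSO array whose interquartile range, 2.56, was the smallest. The part of these array properties in the values was not tested.

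A moderated F test between the 6 time course lines picked out 5 of the 10 genes, against 38.1% of all genes, but the genes were chosen for these responses, so their ranges are descriptions only. The largest minus the smallest response was 0.48 for NEO1, 1.50 for UNC5A, 0.358 for UNC5B, 1.18 for RGMB and 0.772 for NTN4. In COLO668 the response at day 7 minus that at day 2 was 0.65 for NEO1 and 1.41 for NTN4, where 3.42% of all genes were called higher at day 7 in that line.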

How the results depend on the processing

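No called value changed sign under any alternative. Of 2042 comparisons, of called and uncalled values together, 110 changed sign, all of them of uncalled values. In 3 of these the value was then called: UNC5B in NCI-H510 at 0.29 with the mean of all probe sets and 0.71 with the probe set that varied most, and UNC5C in NCI-H446 at -0.55 at day 4 alone. Apart from the settings that left out a single array, 1035 values for single genes kept their side of the threshold, 43 lost it and 31 others gained it. The calls higher and lower among the 90 responses, 16 and 5, became 19 and 7 after quantile normalization and 18 and 6 with the mean of all probe sets. They were 13 and 6 with the probe set that varied most, a choice made after seeing the data, against 5.77% and 4.05% over all genes. For the other alternatives, the replicate block below included, the share over all genes is not given, so nothing is read from their counts. With the mean of all probe sets UNC5B was called in 4 lines. Without the high ACTB arrays and the array of smallest range, also chosen after seeing the data, the pathway calls were 76 and 27, against 60 and 18. The share over all genes is not given for that setting, so nothing is read from the rise. Of the 2 changes with time in culture, the fall, of UNC5D, was not tested with a stricter filter (0 called). UNC5C, UNC5D, NTN1 and NTN4 did not pass that filter. Both changes were lost with each line fitted alone (0 and 0). Responses higher at day 7 than at day 2 numbered 1, against 2, with a stricter filter, with each line fitted alone and without the high ACTB arrays and the array of largest range, and in the last setting 3 genes, against 5, passed the F test between lines. Leaving out single arrays or lines gave a NEO1 day 4 mean of 0.40 to 0.47, 15 to 18 calls higher and 4 to 8 lower, 55 to 66 and 16 to 26 pathway calls, 0 to 1 rise and 0 to 2 falls with time in culture, 2 to 3 responses higher and 0 to 1 lower at day 7, and 5 to 6 genes that passed that F test. The 8 lower calls came without NCI-H446 DMSO day 4 replicate 2. The rise was lost without SHP-77 DMSO day 7 replicate 1, and the fall without NCI-H510 DMSO day 2 replicate 2 or DMSO day 7 replicate 2, while 2 falls were called without NCI-H446 DMSO day 7 replicate 2. The lower response appeared without COLO668 DMSO day 7 replicate 1 or 552A day 7 replicate 1. Whether replicate numbers pair the arrays was not settled: 11 of 21 correlations of their deviations exceeded 0.1 and 3 were below -0.1. These correlations ran between -0.54 and 0.63. With the replicate block 16 responses were called higher and 6 lower, the additional one UNC5A in COLO668 (-0.26), 61 and 22 of the pathway list, 6 genes passed the F test, and the NEO1 day 4 mean was 0.43. The cause of these changes was not tested. Groups of 2 arrays limit what could be called.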
